A study of Homo sapiens with 30 samples.

Results

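Chaperones help other proteins to fold, to stay folded and to be refolded or removed after stress, and 53 human genes that encode them or their partners are described here in neuroblastoma cells. They were taken by name, and the list was chosen with earlier results of these data known. It holds 13 genes of the HSP70 and HSP110 family, 10 of the HSP40 family, 3 of the HSP90 family and 4 of the small heat shock proteins. It also holds 8 subunits of the cytosolic chaperonin CCT, both subunits of the mitochondrial chaperonin, 2 heat shock factors and 11 co-chaperones. All 53 were found by gene ID among the 68608 genes of the deposited tables. The cells were IMR32, NGP and SK-N-BE(2)c, which are established neuroblastoma lines. Every group had received an antisense oligonucleotide (ASO, a short synthetic strand that directs cleavage or blocking of a matching RNA) at 100 nM by lipofection. ASO1, ASO2 and ASO10 target NESPR, a long non-coding RNA. The control groups had received a negative control ASO (NCA) in the same way, so no group was free of transfection. IMR32 had 4 libraries each of ASO1, ASO2 and NCA, while NGP and SK-N-BE(2)c each had 3 libraries of ASO2, ASO10 and NCA. The comparisons ask how the level of each chaperone gene differed when NESPR was targeted, since the series connects NESPR with the attenuation of stress.

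In cells under protein-folding stress, heat shock factor 1 (HSF1) is released from chaperones, binds heat shock elements in promoters and drives genes of the inducible HSP70, HSP40, HSP90 and small heat shock proteins together with BAG3 and other partners. HSP70 proteins hold unfolded clients in an ATP-driven cycle that HSP40 proteins start and exchange factors such as HSPH1 and the BAG proteins end. HSP90 finishes the folding of kinases and receptors with the help of co-chaperones, and CCT folds actin and tubulin inside a ring built of different subunits. Neuroblastoma cells of the adrenergic type resemble immature sympathetic neurons.

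Recovered reads per library ran from 9393587 to 15060356 over the 30 libraries. All 11 adrenergic marker genes reported (among them HAND2, TH and DBH) had a mean of at least 10 normalized reads in every group, and the T cell gene CD3E was at 0 in every library. Their summed level was lower in ASO groups than in NCA groups, with 23784 to 25822 (ASO1), 24244 to 25742 (ASO2) and 26415 to 27279 (NCA) normalized reads in IMR32. The same sum was 48356 to 50579.9 (ASO2), 43236 to 45351 (ASO10) and 53658 to 56558 (NCA) in NGP, and 52693 to 56186, 50631 to 52089 and 58505 to 65102 in SK-N-BE(2)c. Of 8 mesenchymal markers, a mean of at least 10 was reached by 6 in IMR32, by 4 for NGP and by 3 for SK-N-BE(2)c, and their sum in NGP was 13466 to 14405 with ASO2, 11115 to 11813 with ASO10 and 9770.5 to 9895 with NCA. In SK-N-BE(2)c that sum was 3783 to 3849.7, 3556 to 3804 and 2735 to 2904, and in IMR32 it was 2608 to 3198 with ASO1, 3331 to 3519 with ASO2 and 2472 to 3005 with NCA, PRRX1 being at 0 in the NCA libraries of both lines. Of 5 Schwann cell markers 1 to 3 reached a mean of 10, and their sum stayed under 100 in every library, the NGP ASO10 libraries (67.1 to 81.8) lying above NGP NCA (17.4 to 30.0) with CDH19 at 0. Sums over 4 blood cell markers were at most 18.3, and 1 to 3 of 6 epithelial and fibroblast markers reached a mean of 10, with sums from 145 to 996. The part of these shifts in the chaperone values was not tested, and in bulk RNA fewer cells of a type and less RNA per cell cannot be told apart. The fall of NESPR itself was not checked. The labels limit the groups further: replicate 1 of NCA in NGP and SK-N-BE(2)c is spelt differently from replicates 2 and 3, and either of a pair of library kits was used, and which library had which is not stated. No label says that replicates came from separate cultures, so p-values measure the spread between these libraries, which may be technical.

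Promoter sequences are shown first, because the heat shock element that HSF1 binds is made of alternating GAA and TTC units. Promoter windows of 300 bases (250 before and 50 after the annotated start) were taken from RefSeq on GRCh38.p14 and matched 46 of the 53 members, HSPA14, CRYAB, CCT6A, HSF1, STUB1, FKBP4 and ST13 being the others. Each window was searched for the 2-unit motifs GAANNTTC and TTCNNGAA, which read the same on both strands, and for 3-unit motifs, which extend a 2-unit motif by NN and a further unit in alternation, are each other's reverse complement and contain the 2-unit ones. A 2-unit match was in a window of 23 of 46 members (50%), against 16.2% of 27305 genes in the table, and a 3-unit match in 8 of 46 (17.4%), against 0.608%. The members with 3 units in a row were HSPA6, HSPA8, HSP90AA1, HSP90AB1, HSPD1, DNAJA1, DNAJB6 and CHORDC1. Members with several annotated starts had several windows, and a match in any of them was counted. The 250 bases before the start are shown, 5′ to 3′ on the strand of the gene with motif matches in capitals, for HSPA6 at chr1:161524290-161524539 (plus strand), HSPA1B at chr6:31827488-31827737 (plus), HSPA8 at chr11:123062137-123062386 (minus), HSP90AA1 at chr14:102087045-102087294 (minus), HSPD1 at chr2:197499841-197500090 (minus) and DNAJB6 at chr7:157336754-157337003 (plus), because these genes carry the results on inducible, constitutive, mitochondrial and HSP40 members below. HSPA1B and DNAJB6 were added to this choice after their values were seen.
HSPA6: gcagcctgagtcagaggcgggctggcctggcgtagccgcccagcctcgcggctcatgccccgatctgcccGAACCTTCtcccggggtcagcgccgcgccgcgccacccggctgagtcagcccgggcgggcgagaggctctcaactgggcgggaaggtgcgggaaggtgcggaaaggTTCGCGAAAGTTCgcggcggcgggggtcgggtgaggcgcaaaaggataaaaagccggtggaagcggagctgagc
HSPA1B: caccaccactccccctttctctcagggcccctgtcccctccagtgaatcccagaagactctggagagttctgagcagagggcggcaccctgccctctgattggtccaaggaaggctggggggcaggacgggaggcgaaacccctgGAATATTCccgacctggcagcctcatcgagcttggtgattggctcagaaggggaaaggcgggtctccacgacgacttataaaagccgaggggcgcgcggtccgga
HSPA8: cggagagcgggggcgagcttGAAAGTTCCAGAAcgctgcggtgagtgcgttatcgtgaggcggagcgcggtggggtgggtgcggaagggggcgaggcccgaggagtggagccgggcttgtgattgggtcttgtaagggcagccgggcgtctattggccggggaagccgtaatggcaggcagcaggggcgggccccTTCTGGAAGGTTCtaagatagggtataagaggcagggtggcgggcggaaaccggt
HSP90AA1: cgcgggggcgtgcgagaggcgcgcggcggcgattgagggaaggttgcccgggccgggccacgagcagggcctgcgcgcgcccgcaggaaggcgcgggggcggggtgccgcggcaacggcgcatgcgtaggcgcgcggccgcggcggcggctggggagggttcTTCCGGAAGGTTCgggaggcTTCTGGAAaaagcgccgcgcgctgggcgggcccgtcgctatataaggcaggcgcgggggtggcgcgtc
HSPD1: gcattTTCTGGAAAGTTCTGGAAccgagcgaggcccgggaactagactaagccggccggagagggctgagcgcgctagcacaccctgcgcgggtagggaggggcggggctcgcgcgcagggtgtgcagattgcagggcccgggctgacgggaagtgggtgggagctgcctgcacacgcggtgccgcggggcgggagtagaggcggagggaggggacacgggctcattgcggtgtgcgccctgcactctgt
DNAJB6: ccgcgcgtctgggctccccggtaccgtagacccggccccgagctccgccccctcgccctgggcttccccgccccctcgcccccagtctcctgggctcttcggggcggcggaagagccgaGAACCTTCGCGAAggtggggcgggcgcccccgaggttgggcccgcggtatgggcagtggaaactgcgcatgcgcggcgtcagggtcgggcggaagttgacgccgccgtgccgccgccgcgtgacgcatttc
The 3-unit stretch of HSPA6, TTCGCGAAAGTTC, lies 74 to 62 bases before its start, and HSPA1B has only the 2-unit GAATATTC, 105 to 98 bases before it. HSPA8 has a 3-unit stretch at each end of its window, the nearer one (TTCTGGAAGGTTC) 55 to 43 bases before the start, and HSP90AA1 has TTCCGGAAGGTTC 88 to 76 bases before it. In HSPD1 the longer stretch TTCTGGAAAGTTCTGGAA lies 245 to 228 bases before the start, in DNAJB6 GAACCTTCGCGAA lies 131 to 119 bases before it, and CHORDC1 holds the longest stretch of all members, GAAAATTCGCGAAGGTTCCTGAA, 60 to 38 bases before its start. A match is a description of letters and was not tested as a binding site.

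Before any difference, the levels under NCA rank the chaperone genes by RNA per kilobase of exon. The length is that of all annotated exons of a gene joined together, so genes with long or many exon forms are set lower. Per kilobase of exon, HSP90AB1, the constitutive cytosolic HSP90, came first in IMR32 with 6408 ± 441 normalized reads (SD, n = 4) and HSP90AA1, its inducible relative, second with 4626 ± 267. CCT3 (1786 ± 90.8) and HSPA8 (1622 ± 26.0) followed per kilobase in that line, and HSPD1 (1248 ± 40.0) and DNAJA1 (1203 ± 18.1) differed by slightly more than either SD. SK-N-BE(2)c also had HSP90AB1 first per kilobase (8553 ± 361, n = 3), then HSPA8 (5728 ± 464), HSP90AA1 (4519 ± 371) and CCT3 (4164 ± 220), the last 2 of which differed by less than the spread of HSP90AA1. In NGP the subunit CCT2 stood first with 22886 ± 177 normalized reads per kilobase, above HSP90AB1 at 7634 ± 262, HSP90AA1 at 5112 ± 463, CCT3 at 4371 ± 28.2 and HSPA8 at 3067 ± 195. All 53 members together took 1.12% ± 0.0326 of the counts of an IMR32 NCA library, against 2.36% ± 0.0502 for NGP and 1.74% ± 0.0826 for SK-N-BE(2)c. IMR32 was counted over 62710 genes and the other lines over 57905, so its share is not on quite the same base. With ASO1 and ASO2 the members' share in IMR32 was 1.46% ± 0.0657 and 1.35% ± 0.0486, and in each of these libraries it was above every NCA library. The share in NGP was 2.44% ± 0.0235 with ASO2 and 2.09% ± 0.0624 with ASO10, and that in SK-N-BE(2)c was 1.92% ± 0.0624 and 1.70% ± 0.0246. Without CCT2, the most abundant member in NGP, the shares in that line were 1.57% ± 0.00926 (ASO2), 1.47% ± 0.0320 (ASO10) and 1.55% ± 0.0523 (NCA), and the ASO10 and NCA libraries overlapped.

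Each ASO group was set against the NCA group of its line with limma on log2(normalized count + 1), across all genes with a mean of at least 10, and calls were made where the p-value, adjusted after Benjamini and Hochberg, was under 0.05. All log2 fold changes below use these values, so changes of low genes are understated, and SE is the standard error of the fit. IMR32 showed a one-sided pattern: with ASO1, 36 of the 48 members tested were higher than with NCA and 1 was lower, while 13.6% of all 17309 genes tested were called higher and 28% were called in either direction. With ASO2 in the same line, 38 of 48 members were higher and 0 lower (17.6% of all genes higher, 32.4% in either direction). The median log2 fold change over members was 0.26 with ASO1 and 0.30 with ASO2, beside -0.003 and -0.00079 over all genes. Both ASOs called 33 of 48 members higher, against 7.95% of all genes, and both called 0 lower, against 7.12%. These calls share the 4 NCA libraries. In NGP, ASO2 gave 25 of 49 members higher and 8 lower, where 30.6% and 28.1% of all 14440 genes were called so and 58.7% in either direction. ASO10 gave the reverse balance there, with 10 of 49 higher and 15 lower, close to the 26.8% and 27.6% of all genes (54.4% in either direction). In SK-N-BE(2)c, ASO2 gave 31 of 49 members higher and 6 lower, beside 33.6% and 33.4% of all 13556 genes (67% in either direction). After all libraries were brought to one total these counts became 29 higher and 11 lower, and the share of called genes that were higher among all genes went from 50.2% to 38.4% as their median log2 fold change moved from -0.016 to -0.15. Relative to that shift the SK-N-BE(2)c values with ASO2 of HSPA4 (0.19), HSPA14 (0.22), HSP90AB1 (0.20), HSPD1 (0.20), CCT2 (0.22), CHORDC1 (0.25) and FKBP4 (0.15) kept their calls at lower size. CCT5 (-0.36) and CDC37 (-0.37) fell further, and HSF1 and DNAJB5 lost their calls. The 5 members called lower after this rescaling alone were HSPA8 (-0.14), HSPA9 (-0.20), TRAP1 (-0.25), STUB1 (-0.15) and HSPB11 (-0.34). ASO10 gave 12 of 49 higher and 12 lower in that line, beside 27.8% and 31.1% of all genes (58.9% in either direction). Median log2 fold changes of the members were 0.16 (ASO2) and -0.021 (ASO10) in NGP and 0.35 (ASO2) and -0.0056 (ASO10) in SK-N-BE(2)c.

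**Figure D1:**
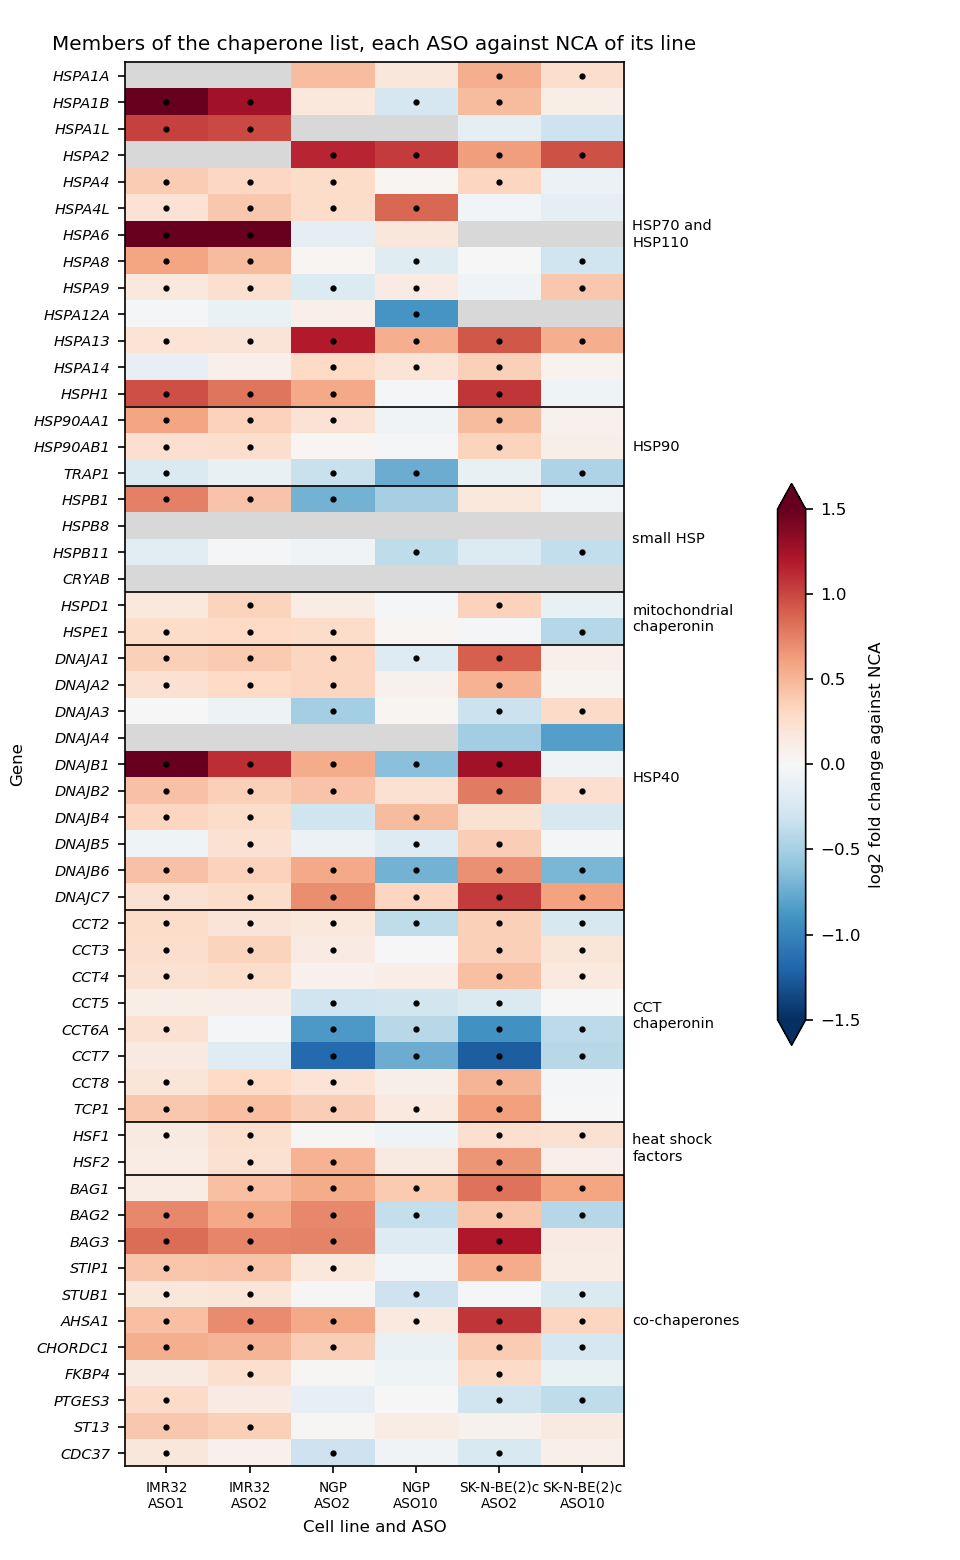
Each of the 53 members (rows, grouped by family) with its log2 fold change for each ASO against NCA of its line (columns), with colour from -1.5 to 1.5 and a dot where the gene was called. Grey cells were not tested because the mean was below 10; the IMR32 columns are mostly red, with 36 and 38 members called higher, whereas the ASO10 columns hold 15 and 12 members called lower.

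The HSP70 and HSP110 family includes inducible HSP70 (HSPA1A, HSPA1B and HSPA6), constitutive HSC70 (HSPA8), mitochondrial mortalin (HSPA9) and the HSP110 exchange factors (HSPH1, HSPA4 and HSPA4L). In IMR32, 9 of 11 tested were higher with each ASO and 0 were lower, with median log2 fold changes of 0.38 (ASO1) and 0.41 (ASO2). NGP had 6 of 12 higher and 1 lower with ASO2 and 5 higher and 3 lower with ASO10, and SK-N-BE(2)c had 7 of 11 higher and 0 lower with ASO2 and 4 higher and 1 lower with ASO10. Shares of all genes called higher and lower in IMR32 were 13.6% and 14.4% with ASO1 and 17.6% and 14.8% with ASO2. In NGP they were 30.6% and 28.1% with ASO2 and 26.8% and 27.6% with ASO10. The same shares in SK-N-BE(2)c were 33.6% and 33.4% with ASO2 and 27.8% and 31.1% with ASO10. With so few genes the ASO10 counts do not set the family apart from genes at large. Members of the family were called higher in every comparison, and HSPA13 was the member called so in all 6.

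HSPA6 (ENSG00000173110), an HSP70 that most unstressed cells hardly express, was at 129.6, 172, 160.2 and 124 with ASO1, 40.3, 51.8, 38.6 and 52.6 with ASO2, and 7.08, 16.04, 4.39 and 9.19 with NCA normalized reads in IMR32. Every ASO1 library was above every ASO2 library, and every ASO2 library above every NCA library. The log2 fold change was 3.97 (SE 0.24, adjusted p 6.79e-10) with ASO1 and 2.31 (SE 0.24, adjusted p 9.5e-07) with ASO2. The value with ASO1 was the largest positive one of all 17309 genes tested in that comparison. However, the mean of HSPA6 with NCA was below 10, so it passed the minimum through the ASO groups. Its rank and the size of its changes therefore rest on a control level near the floor. ASO1 exceeded ASO2 by 1.66 (SE 0.24, adjusted p 5.84e-05). HSPA6 was at 29.7, 41.5 and 81.2 with ASO2, 48.9, 90.3 and 44.4 with ASO10, and 48.3, 75.3 and 37.9 with NCA in NGP, where the groups overlapped and the log2 fold changes were -0.15 (adjusted p 0.691) and 0.17 (adjusted p 0.662). SK-N-BE(2)c libraries held 2.02 to 8.37 normalized reads of it, too few to be tested.

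HSPA1B (ENSG00000204388), the main inducible HSP70 measured here, was at 955, 1278, 1266 and 1000.04 with ASO1, 614, 839.9, 817 and 835 with ASO2, and 247, 339, 368 and 341 with NCA normalized reads in IMR32. Its groups did not overlap, the order being ASO1, ASO2 and NCA from high to low. It rose by 1.80 (SE 0.12, adjusted p 1.4e-09) with ASO1 and by 1.26 (SE 0.12, adjusted p 2.27e-07) with ASO2 on the log2 scale. In NGP its levels were 455, 442 and 564 with ASO2, 339, 377 and 378 with ASO10, and 455, 417 and 428 with NCA, with the ASO10 libraries below all others. The log2 fold change was 0.16 (SE 0.093, adjusted p 0.145) with ASO2, and with ASO10 it fell by 0.25 (SE 0.093, adjusted p 0.0265). That call was lost without ASO10 replicate 1 (adjusted p 0.126), without NCA replicate 1 (adjusted p 0.107) and with DESeq2 (adjusted p 0.0561). SK-N-BE(2)c gave 313, 305 and 274 with ASO2, 237, 226 and 223 with ASO10, and 262, 192 and 193 with NCA, so that all ASO2 libraries were above the rest and the ASO10 libraries lay among those of NCA. With ASO2 it rose by 0.48 (SE 0.11, adjusted p 0.000606) there, and with ASO10 the log2 fold change was 0.10 (SE 0.11, adjusted p 0.461).

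HSPA1A (ENSG00000204389) encodes nearly the same protein from a near-identical neighbouring copy, so that reads can be split between the pair in ways the counting does not show. It was at 4.56, 3.07, 18.01 and 5.85 with ASO1, 5.26, 1.88, 3.59 and 6.86 with ASO2, and 3.54, 1.23, 0 and 2.76 with NCA normalized reads in IMR32, too few to be tested. NGP had 24.1, 20.7 and 25.6 with ASO2, 20.4, 19.97 and 16.8 with ASO10, and 16.4, 13.3 and 21.5 with NCA, and the log2 fold changes there, 0.46 (SE 0.29, adjusted p 0.183) and 0.17 (SE 0.29, adjusted p 0.647), were not called. In SK-N-BE(2)c HSPA1A was at 279.6, 330.0 and 251 with ASO2, 239, 215 and 250.3 with ASO10, and 203, 178 and 206 with NCA, with ASO2 above ASO10 and ASO10 above NCA in every library. It rose by 0.54 (SE 0.11, adjusted p 0.000124) with ASO2 and by 0.26 (SE 0.11, adjusted p 0.0496) with ASO10. The latter call was lost without any 1 of 4 libraries (ASO10 replicates 1 and 3, NCA replicates 1 and 2, with adjusted p up to 0.197). With the reads of both copies added together, an alternative chosen after seeing the data, the log2 fold changes were 1.80 and 1.26 (ASO1 and ASO2, IMR32), 0.17 and -0.23 (ASO2 and ASO10, NGP) and 0.51 and 0.18 (SK-N-BE(2)c), so that the sum followed HSPA1B in IMR32 and NGP.

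HSPA1L (ENSG00000204390), a further relative beside HSPA1A that is best known from testis and can share its reads, was at 10.95, 10.2, 18.01 and 13.4 with ASO1, 12.3, 14.1, 17.1 and 8.00 with ASO2, and 4.72, 6.17, 3.29 and 11.02 with NCA normalized reads in IMR32. One NCA library (replicate 4) lay among the ASO libraries, so the groups overlapped although the log2 fold changes, 1.03 (SE 0.32, adjusted p 0.0214) with ASO1 and 0.99 (SE 0.32, adjusted p 0.0238) with ASO2, were called. Without 1 library the call was lost in 2 cases for ASO1 (ASO1 replicate 3 or NCA replicate 3, adjusted p up to 0.0804) and in 4 for ASO2 (ASO2 replicates 2 and 3, NCA replicates 1 and 3, up to 0.0882), and a pseudocount of 8 lowered the values to 0.58 and 0.55. The mean of HSPA1L was 6.30 with NCA and 13.1 and 12.9 with ASO1 and ASO2, so it passed the minimum of 10 through the ASO groups, and with no minimum neither value was called (adjusted p 0.0619 and 0.0687). NGP held 0 to 6.91 normalized reads of HSPA1L and it was not tested. HSPA1L was at 18.8, 28.1 and 12.00 with ASO2, 17.7, 19.4 and 12.9 with ASO10, and 17.8, 18.1 and 26.99 with NCA in SK-N-BE(2)c, overlapping throughout, with log2 fold changes of -0.14 (SE 0.34, adjusted p 0.728) and -0.31 (SE 0.34, adjusted p 0.453).

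HSPA8 (ENSG00000109971), the constitutive HSP70 and one of the most abundant members, was at 13476, 11589, 11718 and 10896 with ASO1, 10844, 11458, 9931 and 11542 with ASO2, and 7728, 7959, 7984 and 7789 with NCA normalized reads in IMR32. Every ASO library lay well above the NCA libraries, and ASO1 and ASO2 overlapped each other. HSPA8 rose by 0.60 (SE 0.059, adjusted p 2.79e-07) with ASO1 and by 0.47 (SE 0.059, adjusted p 6.71e-06) with ASO2 on the log2 scale. In NGP the values were 15233, 15715 and 14520.4 with ASO2, 12598, 12879.8 and 13781 with ASO10, and 14636, 14068 and 15914 with NCA. HSPA8 was at 26325, 28598 and 28234 with ASO2, 23517, 20919.8 and 23356 with ASO10, and 27541, 25649 and 30135 with NCA in SK-N-BE(2)c. In both of these lines all ASO10 libraries lay below all NCA libraries and the ASO2 libraries overlapped them. With ASO10, HSPA8 fell by 0.18 (SE 0.049, adjusted p 0.00261) in NGP and by 0.30 (SE 0.056, adjusted p 5.25e-05) in SK-N-BE(2)c. Its log2 fold changes with ASO2 were 0.028 (adjusted p 0.64) and -0.0007 (adjusted p 0.992).

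HSPH1 (ENSG00000120694), the HSP110 protein that acts as nucleotide exchange factor of HSP70 and is itself heat inducible, was at 4174, 3988, 3911 and 3432 with ASO1, 3133, 3575, 3355 and 3777 with ASO2, and 1961, 1944, 2089 and 1940.3 with NCA normalized reads in IMR32. No ASO library overlapped the NCA libraries, which lay close together. It rose by 0.96 (SE 0.061, adjusted p 9.59e-10) with ASO1 and by 0.80 (SE 0.061, adjusted p 1.78e-08) with ASO2. NGP had 7141, 7030.1 and 6778 with ASO2, 4570.0, 4395 and 4965 with ASO10, and 4707, 4247 and 5207 with NCA. HSPH1 was at 10290.4, 10826 and 11090.1 with ASO2, 5289.6, 4556 and 4837 with ASO10, and 5069.9, 4797 and 5466 with NCA in SK-N-BE(2)c. In both lines the ASO2 group stood clear of the other groups, which overlapped. With ASO2, HSPH1 rose by 0.57 (SE 0.06, adjusted p 1.24e-08) in NGP and by 1.07 (SE 0.057, adjusted p 2.81e-15) in SK-N-BE(2)c on the log2 scale. With ASO10 the values for HSPH1 were -0.021 (SE 0.06, adjusted p 0.792) and -0.063 (SE 0.057, adjusted p 0.349).

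HSPA2 (ENSG00000126803), an HSP70 abundant in testis and present in neurons, was at 113, 93.8 and 106 with ASO2, 118, 71.3 and 109 with ASO10, and 59.2, 35.4 and 48.2 with NCA normalized reads in NGP. Both ASO groups were above all NCA libraries, and the ASO groups overlapped each other. It rose by 1.14 (SE 0.20, adjusted p 2.44e-05) with ASO2 and by 1.05 (SE 0.20, adjusted p 8.18e-05) with ASO10. SK-N-BE(2)c had 293, 258 and 253 with ASO2, 322, 387 and 302 with ASO10, and 167, 169 and 180.2 with NCA, in the order ASO10, ASO2 and NCA without overlap. The log2 fold changes there were 0.63 (SE 0.11, adjusted p 8.51e-06) with ASO2 and 0.96 (SE 0.11, adjusted p 1.48e-08) with ASO10. HSPA2 was not tested in IMR32, where its libraries held 2.76 to 20.7 normalized reads.

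HSPA13 (ENSG00000155304), a microsomal HSP70 relative, was called higher with every ASO in every line. In IMR32 its levels were 1109, 984, 919 and 953 with ASO1, 1024, 984, 983 and 935 with ASO2, and 941, 876, 815 and 805 with NCA normalized reads, and the groups overlapped. These changes were small, 0.21 (SE 0.062, adjusted p 0.0169) and 0.19 (SE 0.062, adjusted p 0.021), and each call was lost without any 1 of 3 libraries (replicate 1 of the ASO group and NCA replicates 3 and 4, adjusted p up to 0.0668 for ASO1 and 0.0799 for ASO2). NGP had 1500.2, 1330.0 and 1429 with ASO2, 966, 893 and 864 with ASO10, and 667, 525 and 688 with NCA. HSPA13 was at 1530.4, 1509 and 1694 with ASO2, 1124, 1266 and 1219.9 with ASO10, and 839, 802 and 834 with NCA in SK-N-BE(2)c. There the groups did not overlap, with ASO2 highest, ASO10 between and NCA lowest. HSPA13 rose by 1.19 (SE 0.084, adjusted p 1.19e-11) with ASO2 and by 0.54 (SE 0.084, adjusted p 6.02e-06) with ASO10 in NGP, and by 0.93 (SE 0.065, adjusted p 7.23e-13) and by 0.54 (SE 0.065, adjusted p 4.94e-08) in SK-N-BE(2)c.

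Among the other HSP70 and HSP110 genes, HSPA4 was called higher with ASO1 and ASO2 in IMR32 (log2 fold changes 0.38 and 0.32) and with ASO2 in NGP (0.27) and SK-N-BE(2)c (0.32), and not with ASO10. HSPA4L, its close relative, was highest with ASO10 in NGP, where it rose by 0.86 (SE 0.065, adjusted p 4.32e-11), and in SK-N-BE(2)c its log2 fold change with ASO10 was -0.13 (adjusted p 0.278). HSPA4L was also called higher with ASO1 and ASO2 in IMR32 and with ASO2 in NGP. HSPA9 differed in sign between the ASOs in NGP, where it fell with ASO2 (-0.21) and rose with ASO10 (0.13). In SK-N-BE(2)c it rose with ASO10 by 0.41 while ASO2 gave -0.058 (adjusted p 0.352). In IMR32 HSPA9 was called higher with both ASO1 and ASO2, so its direction with ASO2 was not the same in each line. The NGP rise of HSPA9 was lost without ASO10 replicate 3 (adjusted p 0.0715) or NCA replicate 1 (0.0787). HSPA14, which works at the ribosome, rose with ASO2 in NGP (0.30) and SK-N-BE(2)c (0.35) and with ASO10 in NGP (0.20, lost without ASO10 replicate 1 at adjusted p 0.0567). HSPA12A, a distant relative without the usual client-binding part, fell by 0.89 (SE 0.064, adjusted p 1.88e-11) with ASO10 in NGP, from 1013, 1024 and 1038 with NCA to 555, 537 and 566 normalized reads, and SK-N-BE(2)c had at most 3 reads of it in any library.

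**Figure D2:**
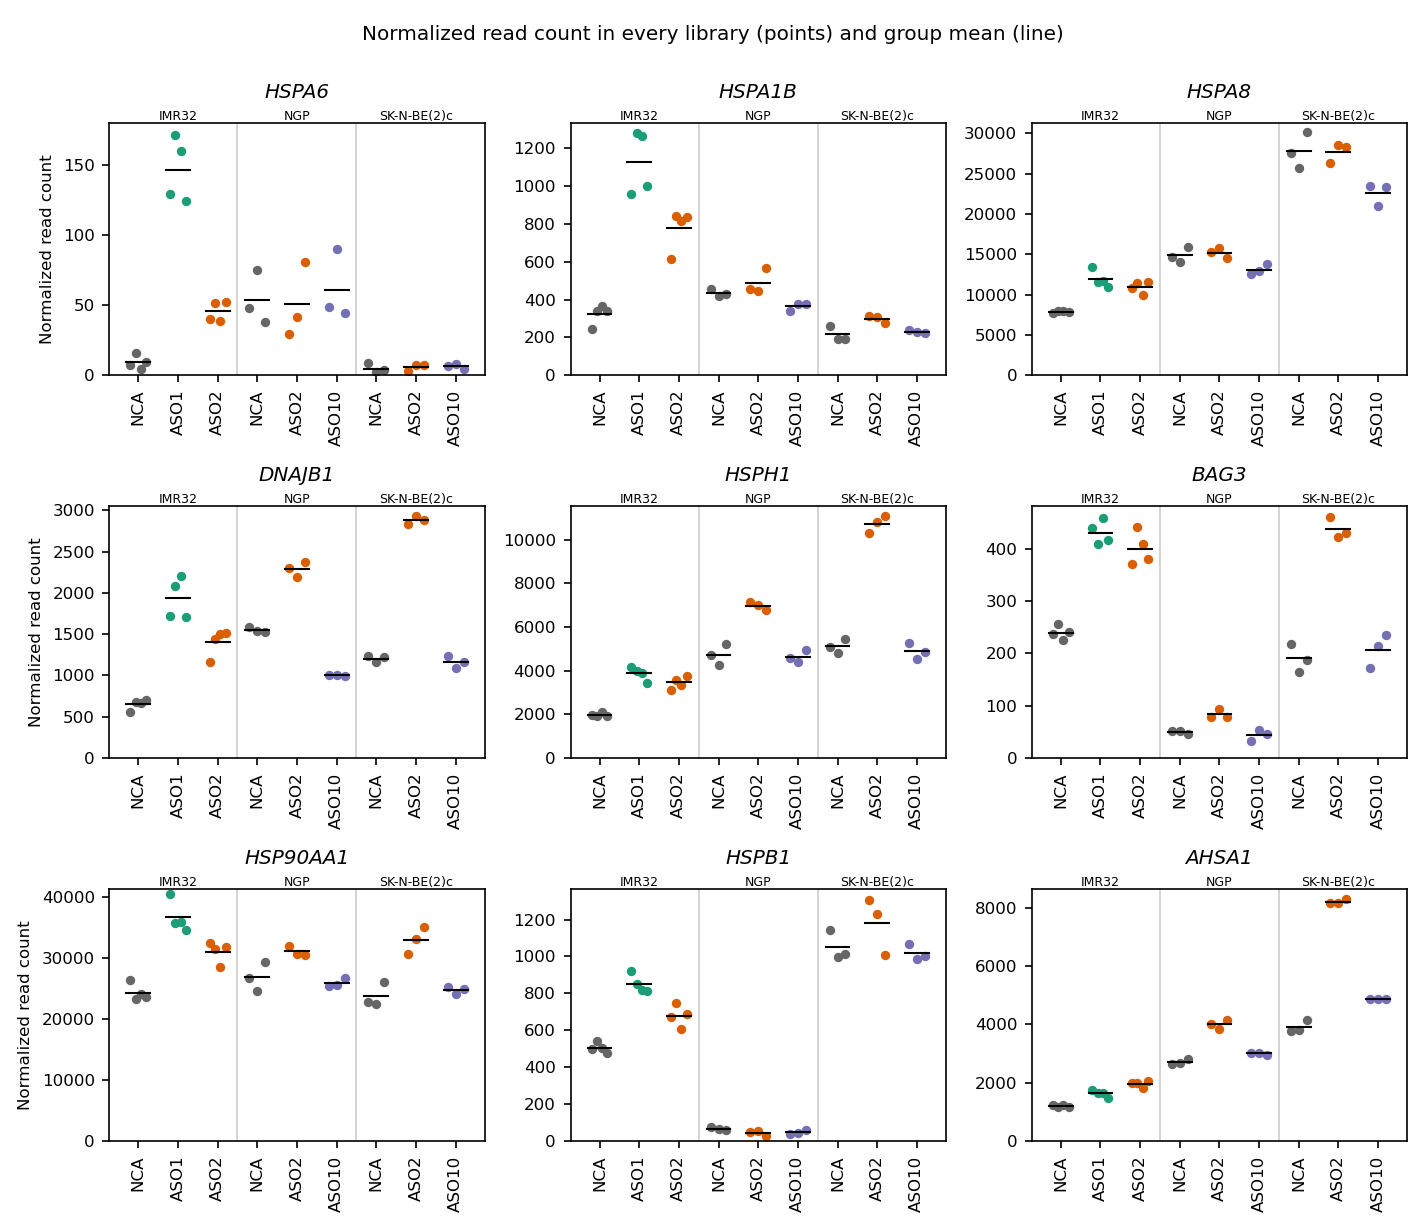
Normalized read count (linear axis from 0) of 9 members in every library (points) with the group mean (line), by line and ASO. HSPA6 stands apart with ASO1 and ASO2 in IMR32, HSPA1B there and, at a lesser size, with ASO2 in SK-N-BE(2)c, whereas DNAJB1, HSPH1, BAG3 and AHSA1 are above NCA with ASO2 in each line.

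HSP40 proteins carry a J domain that starts the ATP cycle of HSP70 and hand it clients. In IMR32, 7 of 9 tested were higher with ASO1 and 8 with ASO2, and 0 were lower. ASO2 gave 6 of 9 higher and 1 lower in NGP and 7 of 10 higher and 1 lower in SK-N-BE(2)c. ASO10 gave 2 higher and 4 lower in NGP and 3 higher and 1 lower in SK-N-BE(2)c. Of all genes, 13.6% (ASO1) and 17.6% (ASO2) were higher in IMR32. With ASO2, 30.6% were higher and 28.1% lower in NGP, and 33.6% and 33.4% in SK-N-BE(2)c. The shares with ASO10 were 26.8% and 27.6% in NGP and 27.8% and 31.1% in SK-N-BE(2)c. With so few genes the ASO10 counts do not set the HSP40 family apart from genes at large.

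DNAJB1 (ENSG00000132002), the main heat inducible HSP40, was at 1725, 2084, 2206 and 1712 with ASO1, 1165, 1446, 1503 and 1516 with ASO2, and 552, 677, 669.9 and 699 with NCA normalized reads in IMR32. ASO1, ASO2 and NCA followed each other without overlap. The rise was 1.57 (SE 0.092, adjusted p 3e-10) with ASO1 and 1.11 (SE 0.092, adjusted p 5.22e-08) with ASO2 on the log2 scale. In NGP it was at 2297, 2186 and 2372 with ASO2, 1006, 1004 and 992 with ASO10, and 1591, 1537 and 1527 with NCA, so that ASO2 was above and ASO10 below NCA in every library. DNAJB1 rose by 0.56 (SE 0.057, adjusted p 7.55e-09) with ASO2 and fell by 0.63 (SE 0.057, adjusted p 9.16e-10) with ASO10 in that line. DNAJB1 was at 2839, 2933 and 2882 with ASO2, 1236, 1091 and 1164 with ASO10, and 1235, 1158 and 1219 with NCA in SK-N-BE(2)c. There it rose by 1.26 (SE 0.06, adjusted p 2.62e-16) with ASO2, and the ASO10 and NCA groups overlapped (log2 fold change -0.05 (SE 0.06, adjusted p 0.483)).

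DNAJC7 (ENSG00000168259), a J protein that binds both HSP70 and HSP90, was called higher in all 6 comparisons. IMR32 libraries held 1741, 1731, 1760.2 and 1851 with ASO1, 1878, 1769, 1805 and 1839 with ASO2, and 1527, 1509, 1498 and 1497 with NCA normalized reads, with all ASO libraries above all NCA libraries. Levels in NGP were 4081, 3768 and 4182 with ASO2, 3089, 2948 and 3236 with ASO10, and 2355, 2461 and 2595 with NCA. DNAJC7 was at 3618, 3649 and 4001 with ASO2, 2597, 2865 and 2764 with ASO10, and 1785, 1696 and 1959 with NCA in SK-N-BE(2)c. In these lines ASO2 was highest, ASO10 between and NCA lowest, without overlap. The log2 fold changes were 0.23 and 0.27 in IMR32 (ASO1 and ASO2), 0.70 and 0.32 in NGP (ASO2 and ASO10) and 1.05 and 0.60 in SK-N-BE(2)c, with adjusted p of at most 0.000318 and SE of 0.042 to 0.060.

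DNAJB6, an HSP40 known for holding back polyglutamine aggregates and singled out after its values were seen, moved in opposite directions with the ASOs that were used in NGP and SK-N-BE(2)c. It rose by 0.57 (SE 0.076, adjusted p 5.32e-07) with ASO2 and fell by 0.70 (SE 0.076, adjusted p 2.08e-08) with ASO10 in NGP, where its levels were 1051, 1115 and 1105 with ASO2, 448, 414 and 492 with ASO10, and 752, 689 and 763 with NCA normalized reads. SK-N-BE(2)c showed the same split, as it rose by 0.69 (SE 0.075, adjusted p 4.43e-09) with ASO2 and fell by 0.69 (SE 0.075, adjusted p 9.11e-09) with ASO10, with 1261, 1206 and 1215 with ASO2, 525, 464 and 432 with ASO10, and 722, 809.6 and 749.8 with NCA. No library of one group overlapped another in either line, and in IMR32 it rose by 0.44 with ASO1 and 0.35 with ASO2. DNAJA1, an abundant cytosolic HSP40, rose with every ASO1 and ASO2 comparison (log2 fold changes 0.36, 0.39, 0.32 and 0.90) and fell by 0.19 (SE 0.053, adjusted p 0.00396) with ASO10 in NGP. Its relative DNAJA2 rose in those comparisons by 0.23, 0.30, 0.32 and 0.52. DNAJA3, which works in mitochondria, went the other way: it fell with ASO2 in NGP (-0.51) and SK-N-BE(2)c (-0.32) and rose with ASO10 in SK-N-BE(2)c (0.29). DNAJB2, an HSP40 enriched in neurons, rose with ASO1 and ASO2 wherever they were used (0.44, 0.35, 0.43 and 0.77) and with ASO10 in SK-N-BE(2)c (0.25, which became 0.14 with adjusted p 0.26 without ASO10 replicate 2, and was also lost without NCA replicate 1 or 2 at adjusted p 0.0682 and 0.124). DNAJB4 and DNAJB5 are relatives of DNAJB1. DNAJB4 rose in IMR32 (0.33 and 0.28) and with ASO10 in NGP (0.47). DNAJB5 rose with ASO2 in IMR32 (0.23) and SK-N-BE(2)c (0.37) and fell with ASO10 in NGP (-0.19, which became -0.11 with adjusted p 0.301 without ASO10 replicate 1). The DNAJB5 calls were weak in general: the NGP one was also lost without ASO10 replicate 2, NCA replicate 1 or NCA replicate 2 (up to 0.148), the SK-N-BE(2)c one without ASO2 replicate 2 (0.0576), and the IMR32 one without ASO2 replicate 1 or 2 or NCA replicate 2 (up to 0.0687). DNAJA4 had a mean of at least 10 only in SK-N-BE(2)c, where its log2 fold changes of -0.52 and -0.83 were not called.

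The HSP90 group holds the cytosolic HSP90AA1 and HSP90AB1 and the mitochondrial TRAP1. Cytosolic members were higher in IMR32 with both ASOs and in SK-N-BE(2)c with ASO2, and TRAP1 was called lower in 4 of 6 comparisons, and in all 6 once all libraries had one total. HSP90AA1 (ENSG00000080824) was at 40382, 35735, 35856 and 34485 with ASO1, 32444, 31392, 28386 and 31667 with ASO2, and 26328, 23297, 24016 and 23472 with NCA normalized reads in IMR32. Every ASO library was above every NCA library and ASO1 above ASO2. The rise of HSP90AA1 was 0.59 (SE 0.061, adjusted p 4.05e-07) with ASO1 and 0.35 (SE 0.061, adjusted p 0.000198) with ASO2 on the log2 scale. In NGP its levels were 31908, 30636 and 30491 with ASO2, 25398, 25558 and 26733 with ASO10, and 26709.9, 24458 and 29316 with NCA. HSP90AA1 was at 30602, 33060.1 and 35058 with ASO2, 25230.0, 23994 and 24902 with ASO10, and 22794, 22396 and 25954 with NCA in SK-N-BE(2)c. ASO2 stood above the other groups in both lines, with log2 fold changes of 0.21 (SE 0.049, adjusted p 0.000674) and 0.47 (SE 0.055, adjusted p 1.71e-08), and ASO10 overlapped NCA (-0.047 and 0.062). HSP90AB1 rose by 0.25 with ASO1 and 0.26 with ASO2 in IMR32 and by 0.33 with ASO2 in SK-N-BE(2)c, and in NGP its log2 fold changes were 0.032 (ASO2, adjusted p 0.528) and -0.03 (ASO10, adjusted p 0.561). TRAP1 fell with ASO1 in IMR32 (-0.21), with ASO2 and ASO10 in NGP (-0.33 and -0.75) and with ASO10 in SK-N-BE(2)c (-0.46), where no library of these groups overlapped NCA. With ASO2 its values were -0.11 in IMR32 (adjusted p 0.0668, but 0.0417 with DESeq2, 0.0443 with edgeR and 0.00567 at one total) and -0.11 in SK-N-BE(2)c (adjusted p 0.0655, but 0.000199 at one total, where the value was -0.25). HSPA8, HSP90AA1, HSP90AB1, HSPD1, HSPE1 and CCT6A have processed pseudogenes, and reads shared with those add uncertainty to their levels.

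Small heat shock proteins hold unfolded proteins without ATP. Of the 4 listed, CRYAB had at most 2 reads and HSPB8 at most 12 reads in any library, so that only HSPB1 and HSPB11 were tested. HSPB1 (ENSG00000106211), the inducible HSP27, was at 924, 849.6, 818 and 814 with ASO1, 674, 748, 605 and 688 with ASO2, and 496, 544, 502 and 476 with NCA normalized reads in IMR32. The groups did not overlap, and HSPB1 rose by 0.75 (SE 0.065, adjusted p 4.88e-08) with ASO1 and by 0.43 (SE 0.065, adjusted p 6.17e-05) with ASO2. NGP held far fewer reads of it, 45.5, 54.3 and 23.4 with ASO2, 36.7, 43.7 and 56.2 with ASO10, and 73.8, 62.03 and 56.4 with NCA. There it fell by 0.70 (SE 0.25, adjusted p 0.0186) with ASO2, but this rests on ASO2 replicate 3, without which the log2 fold change was -0.35 (adjusted p 0.202), and the call was also lost without NCA replicate 1 (adjusted p 0.085). With ASO10 the value in NGP was -0.50 (SE 0.25, adjusted p 0.0973). SK-N-BE(2)c had 1304, 1233 and 1010.1 with ASO2, 1069, 984 and 1001 with ASO10, and 1146, 996 and 1013 with NCA, overlapping in all groups, with log2 fold changes of 0.16 (SE 0.078, adjusted p 0.0677) and -0.045 (SE 0.078, adjusted p 0.647). HSPB11, which despite its name is a part of the transport machinery of cilia, was called lower with ASO10 in NGP (-0.38) and also in SK-N-BE(2)c (-0.37, lost without ASO10 replicate 2 at adjusted p 0.112 or NCA replicate 3 at 0.0903) and, only once all libraries had one total, with ASO2 in SK-N-BE(2)c (-0.34, adjusted p 0.0228).

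The mitochondrial chaperonin is a chamber of HSPD1 (HSP60) closed by HSPE1 (HSP10), and the 2 genes share a promoter region. HSPD1 (ENSG00000144381) was at 6763, 5728, 5583 and 5591 with ASO1, 7166, 6443, 6285 and 6864 with ASO2, and 5552, 5202, 5228 and 5209 with NCA normalized reads in IMR32. Both ASO groups lay above NCA, with log2 fold changes of 0.16 (SE 0.058, adjusted p 0.0532) and 0.34 (SE 0.058, adjusted p 0.00022). The former missed the threshold, but passed it with DESeq2 (adjusted p 0.0359), edgeR (0.0319), one total (0.00714) and the replicate block (0.000178). NGP had 7419, 7558 and 7101 with ASO2, 6646, 6684 and 6836 with ASO10, and 6656, 6421 and 7422 with NCA. HSPD1 was at 15439.5, 15774 and 16576 with ASO2, 11976, 11186 and 11840.4 with ASO10, and 12089, 12104 and 13545 with NCA in SK-N-BE(2)c. HSPD1 rose by 0.34 (SE 0.051, adjusted p 1.15e-06) with ASO2 in SK-N-BE(2)c, and its other log2 fold changes in these lines were 0.11 (ASO2, NGP), -0.021 (ASO10, NGP) and -0.11 (ASO10, SK-N-BE(2)c), none of them called. The last was called at one total (-0.13, adjusted p 0.0238) and with the replicate block (adjusted p 0.041). HSPE1 (ENSG00000115541) was at 252, 233, 252 and 226 with ASO1, 237, 251, 237 and 254 with ASO2, and 206, 209.7, 186 and 193 with NCA in IMR32. No ASO library overlapped NCA there, and it rose by 0.28 with ASO1 (adjusted p 0.00604) and 0.30 with ASO2 (adjusted p 0.00305). Its levels were 841, 821 and 859 with ASO2, 679, 656 and 789 with ASO10, and 690.2, 639 and 757 with NCA in NGP. HSPE1 was at 1229, 1251 and 1119 with ASO2, 1104, 677 and 987 with ASO10, and 1160.5, 1158 and 1334 with NCA in SK-N-BE(2)c. With ASO2 in NGP it rose by 0.28 (SE 0.079, adjusted p 0.00418). For SK-N-BE(2)c, ASO2 gave -0.02 (SE 0.11, adjusted p 0.878) and with ASO10 it fell by 0.43 (SE 0.11, adjusted p 0.00102). This fall was 0.22 in size (adjusted p 0.0196) without ASO10 replicate 2 and was not called by DESeq2 (adjusted p 0.0653).

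CCT, also called TRiC, is a double ring in which each of 8 different subunits has a fixed place, so the subunits are needed in equal amounts. In IMR32 6 of 8 subunits were higher with ASO1 and 5 with ASO2, with 0 lower, while in NGP ASO2 gave 4 higher and 3 lower and ASO10 1 higher and 4 lower. SK-N-BE(2)c had 5 higher and 3 lower with ASO2 and 2 higher and 3 lower with ASO10. Between 54.4% and 67% of all genes were called in these NGP and SK-N-BE(2)c comparisons, with similar shares higher and lower, so calls in both directions among 8 genes are near what genes at large show. The subunits that were lower in these 2 lines were mostly CCT7, CCT6A and CCT5. CCT7 (ENSG00000135624) was at 2319.9, 2586 and 2207 with ASO2, 3036, 3015 and 3419 with ASO10, and 5193, 5471 and 5207 with NCA normalized reads in NGP. CCT7 was at 1768, 1888 and 1718 with ASO2, 3241, 3132 and 3111 with ASO10, and 4217, 4090.3 and 4343 with NCA in SK-N-BE(2)c. In both lines NCA was highest, ASO10 between and ASO2 lowest, without overlap. On the log2 scale it fell by 1.16 (SE 0.06, adjusted p 5.17e-14) with ASO2 and by 0.75 (SE 0.06, adjusted p 1.16e-10) with ASO10 in NGP. There was a like order in SK-N-BE(2)c, where it fell by 1.24 (SE 0.053, adjusted p 5.11e-17) with ASO2 and by 0.42 (SE 0.053, adjusted p 1.45e-07) with ASO10. IMR32 libraries held 3946, 3142, 3384 and 3394 with ASO1, 3212, 2808, 2471 and 2612 with ASO2, and 3460.3, 3099.9, 3033 and 2971 with NCA, which overlapped, and the log2 fold changes of 0.14 (SE 0.074, adjusted p 0.175) and -0.18 (SE 0.074, adjusted p 0.0647) were not called. With the replicate number as a block both were called (adjusted p 0.00205 and 7.45e-05), as each ASO1 library was above, and each ASO2 library below, the NCA library of its number, and the ASO2 value was also called at one total (-0.22, adjusted p 0.0116). CCT6A fell in the same 4 comparisons, by 0.86 and 0.41 in NGP and 0.91 and 0.40 in SK-N-BE(2)c (ASO2 and ASO10), and rose by 0.23 with ASO1 in IMR32. For CCT5 the log2 fold changes were -0.30, -0.27 and -0.22 where it fell (ASO2 and ASO10 in NGP, ASO2 in SK-N-BE(2)c) and -0.0056 (adjusted p 0.931) with ASO10 in SK-N-BE(2)c. TCP1, the subunit that gave the complex its name, was the subunit with the largest rise with ASO2 in each line, with 0.46 for IMR32, 0.37 for NGP and 0.62 for SK-N-BE(2)c. Its rise with ASO10 in NGP (0.14) became 0.086 (adjusted p 0.174) without NCA replicate 2. CCT2 rose with ASO2 in each line (0.19, 0.16 and 0.36) and fell with ASO10 by 0.38 (NGP) and 0.24 (SK-N-BE(2)c), its NGP value with ASO2 being 0.092 (adjusted p 0.0471) once all libraries had one total. CCT3, CCT4 and CCT8 were called lower in no comparison against NCA, and the rise of CCT3 with ASO2 in NGP (0.12) was not called once all libraries had one total (adjusted p 0.238) or without ASO2 replicate 3 (0.0668). The spread between subunits with ASO2 ran from -1.16 to 0.37 in NGP, while in SK-N-BE(2)c it ran from -1.24 to 0.62.

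**Figure D3:**
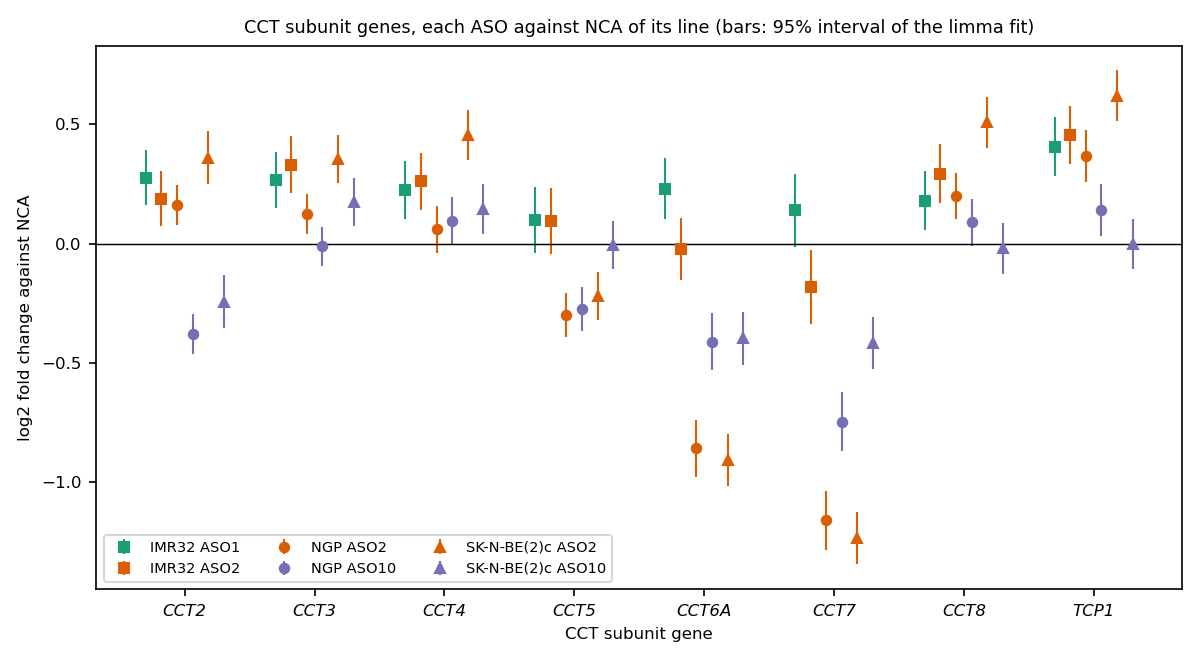
Change against NCA (log2 fold change, y axis) of the 8 CCT subunit genes (x axis) for each ASO and line, with the 95% interval of the fit. CCT7 and CCT6A lie below 0 in NGP and SK-N-BE(2)c, reaching -1.24 for CCT7, while TCP1 lies above 0 with ASO2 in each line.

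Of the heat shock factors, which switch these genes on, neither was called lower in any comparison. HSF1 (ENSG00000185122) was at 869.7, 854, 906 and 903 with ASO1, 920.1, 1014, 919.8 and 940.5 with ASO2, and 799, 809, 815 and 786 with NCA normalized reads in IMR32. All ASO libraries were above all NCA libraries, by 0.14 (SE 0.048, adjusted p 0.0382) with ASO1 and 0.24 (SE 0.048, adjusted p 0.000829) with ASO2 on the log2 scale. The ASO1 call was lost without any 1 of 6 libraries (adjusted p 0.059 to 0.0999). In NGP HSF1 was at 933, 1080.2 and 1051 with ASO2, 963, 1057 and 879 with ASO10, and 1074, 1059.8 and 900.4 with NCA, overlapping throughout, with log2 fold changes of 0.016 and -0.066. SK-N-BE(2)c had 891, 882 and 807 with ASO2, 824, 889.9 and 828 with ASO10, and 774, 709.8 and 685 with NCA, with both ASO groups above NCA (0.25 with adjusted p 0.00284, and 0.23 with adjusted p 0.00683). The ASO2 value there was 0.11 (adjusted p 0.163) once all libraries had one total. HSF2, another factor that can pair with HSF1, rose with ASO2 in each line (0.23, 0.53 and 0.67), the first of these lost without any 1 of 5 libraries (adjusted p up to 0.118). RNA levels do not measure the activity of these factors, which is set on the protein.

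Co-chaperones steer HSP70 and HSP90 between clients, folding and degradation. In IMR32, 9 of 11 were higher with each ASO and 0 lower. ASO2 gave 6 higher and 1 lower in NGP and 7 higher and 2 lower in SK-N-BE(2)c, and ASO10 gave 2 higher and 2 lower in NGP and 2 higher and 4 lower in SK-N-BE(2)c. Of all genes, 13.6% (ASO1) and 17.6% (ASO2) were higher in IMR32. With ASO2, 30.6% were higher and 28.1% lower in NGP, and 33.6% and 33.4% in SK-N-BE(2)c. The shares with ASO10 were 26.8% and 27.6% in NGP and 27.8% and 31.1% in SK-N-BE(2)c. With so few genes the ASO10 counts do not set the co-chaperones apart from genes at large.

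BAG3 (ENSG00000151929), an HSF1 target that sends HSP70 clients to autophagy, was at 439, 410.0, 459 and 416 with ASO1, 370.1, 443, 409 and 381 with ASO2, and 237, 255, 225 and 242 with NCA normalized reads in IMR32. No ASO library came near the NCA libraries, and BAG3 rose by 0.84 (SE 0.069, adjusted p 2.48e-08) with ASO1 and by 0.74 (SE 0.069, adjusted p 2.27e-07) with ASO2. NGP had 77.98, 93.8 and 78.98 with ASO2, 32.6, 53.3 and 46.4 with ASO10, and 50.99, 52.3 and 45.1 with NCA. BAG3 was at 461, 422 and 429 with ASO2, 172, 215 and 235 with ASO10, and 219, 164 and 188 with NCA in SK-N-BE(2)c. ASO2 was above both other groups in each of these lines, while ASO10 overlapped NCA. The log2 fold changes with ASO2 were 0.74 (SE 0.20, adjusted p 0.00233) in NGP and 1.21 (SE 0.12, adjusted p 5.26e-10) in SK-N-BE(2)c, and those with ASO10 were -0.19 (adjusted p 0.437) and 0.12 (adjusted p 0.392).

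AHSA1 (ENSG00000100591), which speeds up the ATPase of HSP90, was called higher in all 6 comparisons. It was at 1750.3, 1655, 1649 and 1459.5 with ASO1, 1978, 1985, 1805 and 2035 with ASO2, and 1219, 1171, 1217 and 1161 with NCA normalized reads in IMR32, where every ASO2 library was above every ASO1 library and these above every NCA library. Levels were 4009, 3833 and 4152 with ASO2, 3024, 3015 and 2957 with ASO10, and 2649, 2655 and 2807 with NCA in NGP. AHSA1 was at 8166, 8144 and 8295 with ASO2, 4868, 4862 and 4872 with ASO10, and 3782, 3797 and 4155 with NCA in SK-N-BE(2)c. In these lines no groups overlapped, with ASO2 highest and NCA lowest. The log2 fold changes were 0.45 and 0.71 in IMR32 (ASO1 and ASO2), 0.56 and 0.15 in NGP (ASO2 and ASO10) and 1.07 and 0.32 in SK-N-BE(2)c. The smallest of them, with ASO10 in NGP (adjusted p 0.0145), was lost without ASO10 replicate 1 (0.0529) or NCA replicate 1 (0.0618).

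STIP1, which passes clients from HSP70 to HSP90, rose with ASO1 and ASO2 in each comparison (0.41, 0.43, 0.15 and 0.56), although the NGP value was 0.083 (adjusted p 0.108) once all libraries had one total. BAG2, an inhibitor of the ubiquitin ligase STUB1, rose by 0.72 and 0.56 in IMR32 and by 0.72 and 0.42 with ASO2 in NGP and SK-N-BE(2)c, and fell by 0.36 and 0.42 with ASO10, the NGP fall being lost without ASO10 replicate 2 (adjusted p 0.0514) or NCA replicate 1 (0.0638). STUB1 itself rose in IMR32 (0.17 and 0.18) and fell with ASO10 by 0.31 (NGP) and 0.22 (SK-N-BE(2)c), the IMR32 calls being lost without NCA replicate 2 (adjusted p 0.101 and 0.0717). BAG1, an exchange factor of HSP70, was higher with ASO2 in all 3 lines (0.45, 0.56 and 0.81) and with ASO10 in both lines that had it (0.39 and 0.59). CHORDC1 is an HSP90 partner with the longest motif stretch given above, a match of letters not tested as a binding site. It rose by 0.55, 0.51, 0.37 and 0.39 with ASO1 and ASO2 and fell by 0.25 with ASO10 in SK-N-BE(2)c. The HSP90 cofactors CDC37, PTGES3 and FKBP4 behaved otherwise. CDC37, which delivers kinases, fell with ASO2 in NGP (-0.31) and SK-N-BE(2)c (-0.23) and rose with ASO1 in IMR32 (0.17). PTGES3, also called p23, fell with both ASOs in SK-N-BE(2)c (-0.30 and -0.38) and rose with ASO1 in IMR32 (0.29). FKBP4, an immunophilin of steroid receptor complexes, rose with ASO2 in IMR32 (0.25) and SK-N-BE(2)c (0.29). ST13, which stabilises HSP70 in its client-bound state, rose in IMR32 (0.41 and 0.36) and was called in neither of the other lines.

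ASO2 and ASO10 were then set against each other directly, with no use of the NCA libraries. In NGP, 28 of 49 members were higher with ASO2 and 8 higher with ASO10, beside 30.6% and 28% of all genes (58.6% in either direction), and the median log2 fold change over members was 0.20. In SK-N-BE(2)c, 35 of 49 were higher with ASO2 and 7 with ASO10, beside 34.6% and 30.8% of all genes (65.4%), with a median of 0.37. Rescaling to the same total gave 30 and 8 members there and moved the share of called genes that were higher with ASO2 from 52.9% to 42.3%. Of 47 members tested in both lines, 26 were higher with ASO2 in each (26.3% of all genes) and 5 lower in each (22.8%). DNAJB6 gave the largest difference in both lines, 1.27 (SE 0.076, adjusted p 3.5e-13) in NGP and 1.38 (SE 0.075, adjusted p 3.67e-15) in SK-N-BE(2)c. DNAJB1 followed with 1.19 and 1.31, and BAG2, BAG3 and HSPH1 had 1.08, 0.93 and 0.59 in NGP and 0.84, 1.09 and 1.14 in SK-N-BE(2)c. The 5 genes higher with ASO10 in each line were HSPA9 (log2 fold changes of ASO2 against ASO10 -0.34 and -0.47), DNAJA3 (-0.55 and -0.60), CCT6A (-0.45 and -0.51), CCT7 (-0.41 and -0.82) and CDC37 (-0.25 and -0.31). HSPA9 and DNAJA3 both work in mitochondria, but the mitochondrial TRAP1, HSPD1 and HSPE1 were higher with ASO2 in each line (0.42, 0.13 and 0.25 in NGP). The HSPD1 difference in NGP lost its call with DESeq2 (adjusted p 0.106), with edgeR (0.0805), after rescaling to the same total (0.232) and without any 1 of 4 libraries (ASO2 replicates 1 and 2, ASO10 replicates 1 and 2, up to 0.107), and that of HSPE1 without ASO10 replicate 2 (0.0551). In SK-N-BE(2)c the HSPE1 difference of 0.41 became 0.20 (adjusted p 0.0279) without ASO10 replicate 2 and was not called with DESeq2 (adjusted p 0.0693). DNAJB4 was the single member with calls of opposite sign, -0.77 for NGP and 0.48 for SK-N-BE(2)c.

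**Figure D4:**
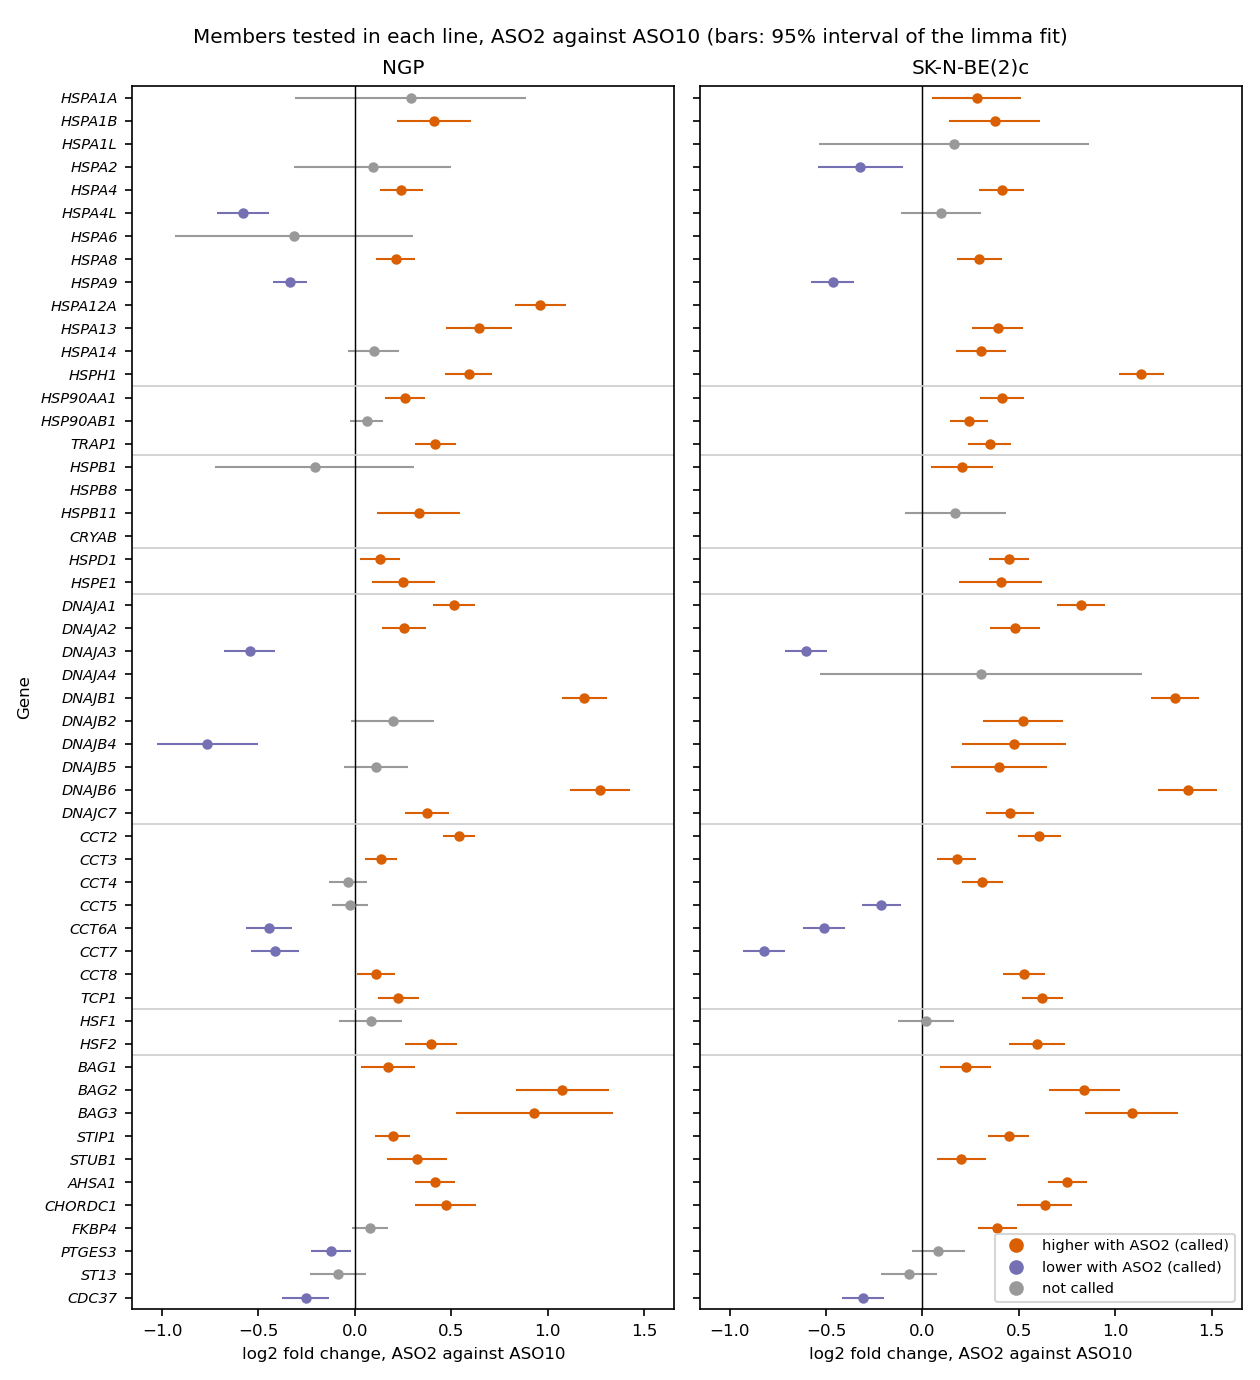
Difference of ASO2 from ASO10 on the log2 scale (x axis) for each member tested (y axis, by family) in NGP (left) and SK-N-BE(2)c (right), with the 95% interval of the fit and colour by call. Points lie to the right for 28 called members (NGP) and 35 (SK-N-BE(2)c), with DNAJB6 farthest at 1.27 and 1.38, and to the left for 8 and 7.

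ASO1 and ASO2 were compared with each other in IMR32, where 7 of 48 members were higher with ASO1 and 5 with ASO2, beside 9.17% and 12.8% of all genes (21.9% in either direction). After rescaling to the same total the counts were 13 and 3, and the share of all called genes that were higher with ASO1 went from 41.8% to 59.8%. With the replicate number as a block they were 12 and 10. The members higher with ASO1 were led by HSPA6, HSPA1B (0.53, SE 0.12, adjusted p 0.00271) and DNAJB1 (0.46, SE 0.092, adjusted p 0.00115), followed by HSPB1 (0.33), CCT7 (0.32), CCT6A (0.25) and HSP90AA1 (0.24). Those higher with ASO2 were BAG1 (-0.34), DNAJB5 (-0.29), AHSA1 (-0.26), HSPA4L (-0.19) and HSPD1 (-0.18). The values of HSPA4L and HSPD1 each lost their call without 1 library (adjusted p up to 0.0697 and 0.11).

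Whether an ASO acted alike in NGP and SK-N-BE(2)c was tested by the difference of its effects, the NGP log2 fold change against NCA less that in SK-N-BE(2)c. For ASO2, 17 of 50 members were lower and 0 higher, beside 8.79% and 7.95% of all 14537 genes (16.7% in either direction), and rescaling to the same total made this 10 lower and 2 higher. The called member differences were therefore all in the direction of a larger rise, or a smaller fall, in SK-N-BE(2)c, with DNAJB1 (-0.70, SE 0.073, adjusted p 1.05e-06), DNAJA1 (-0.57, SE 0.089, adjusted p 0.000142), AHSA1 (-0.51, SE 0.063, adjusted p 1.26e-05) and HSPH1 (-0.50, SE 0.093, adjusted p 0.000729) among the clearest. The largest in size, HSPB1 with -0.87 (SE 0.28, adjusted p 0.0349), was -0.51 (adjusted p 0.0905) without NGP ASO2 replicate 3 and was lost without any 1 of 6 other libraries (up to 0.0944). For CCT7 and CCT6A the ASO2 effects differed by 0.075 (95% interval -0.092 to 0.24) and 0.05 (-0.12 to 0.22), and neither was called. For ASO10, 3 of 50 were higher and 10 lower, beside 8.78% and 8.09% of all genes (16.9%). HSPA4L (0.99, SE 0.12, adjusted p 8.22e-06), DNAJB4 (0.72, SE 0.19, adjusted p 0.0111) and PTGES3 (0.39, SE 0.10, adjusted p 0.00917) were higher, and DNAJB1 (-0.58, SE 0.073, adjusted p 8.22e-06) was among the lower ones. HSPA12A differed by -1.86, but SK-N-BE(2)c had at most 3 reads of it in any library, so the value is no measure of a difference between lines.

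Across the 3 lines, 45 members were tested in all 6 comparisons against NCA. ASO2 was called higher in each line for 21 of the 45 and lower for 0, beside 15% and 10.2% of the 11594 genes tested in all lines. These 21 were HSPA4, HSPA13, HSPH1, HSP90AA1, DNAJA1, DNAJA2, DNAJB1, DNAJB2, DNAJB6, DNAJC7, CCT2, CCT3, CCT8, TCP1, HSF2, BAG1, BAG2, BAG3, STIP1, AHSA1 and CHORDC1. HSPA13, DNAJC7 and AHSA1 were the 3 of 45 called higher in all 6 comparisons, beside 3.05% of all genes, and 0 were called lower in all 6 (2.92%), though TRAP1 was at one total. ASO10 was called lower in both lines for 9 of 47 members and higher for 6, beside 20.5% and 19.1% of all genes, shares close to those of genes at large. Within NGP, 5 of 49 members were higher with ASO2 and lower with ASO10 (DNAJA1, DNAJB1, DNAJB6, CCT2 and BAG2; 4.85% of all genes) and 1, HSPA9, was the reverse (3.67%). Within SK-N-BE(2)c 4 of 49 were (DNAJB6, CCT2, BAG2 and CHORDC1; 5.64%) and 1, DNAJA3, was the reverse (4.65%). Both ASOs called 8 of 49 members higher (14.8% of all genes) and 4 lower (12.8%) in NGP, and 10 of 49 higher (16.1%) and 3 lower (16.5%) in SK-N-BE(2)c. All these comparisons share the NCA libraries of their line.

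Other genes of the same pathways were counted in the same fits, and from each list the gene with the largest called change is named. Further heat shock responsive genes were higher in IMR32 in 10 of 10 tested with ASO1 and 9 of 10 with ASO2. They were higher in NGP in 8 of 9 with ASO2 (1 lower) and 5 of 9 with ASO10 (3 lower), and in SK-N-BE(2)c in 7 of 11 with ASO2 (1 lower) and 7 of 11 with ASO10 (3 lower). GADD45B, a stress gene of growth arrest, led this list with a rise of 2.55, SE 0.42, adjusted p 1.23e-05 with ASO10 in NGP, and it rose by 1.41 with ASO2 there. Prefoldin subunits and CCT cofactors, which bring actin and tubulin to CCT, were higher in 4 of 10 with ASO1 and 5 of 10 with ASO2 in IMR32 (0 lower), in 6 of 10 with ASO2 in NGP (2 lower) and in 8 of 10 with ASO2 in SK-N-BE(2)c (2 lower). With ASO10 they were higher in 0 of 10 in both lines and lower in 2 (NGP) and 4 (SK-N-BE(2)c). PDCL, a phosducin-like partner of CCT, had the largest change, a log2 fold change of 0.92, SE 0.086, adjusted p 2.43e-10 with ASO2 in SK-N-BE(2)c. Other HSP90 cofactors gave, of 10, 3 higher and 1 lower with ASO1 and 5 and 1 with ASO2 in IMR32, 4 and 3 with ASO2 and 3 and 2 with ASO10 in NGP, and 4 and 4 with ASO2 and 2 and 3 with ASO10 in SK-N-BE(2)c. Their largest change was that of CDC37L1, a relative of CDC37, which rose by 0.82 with ASO2 in NGP (adjusted p 2.13e-08), opposite in sign to CDC37 itself. Other HSP70 cofactors gave, of 12, 4 higher and 0 lower with ASO1 and 7 and 0 with ASO2 in IMR32, 4 and 2 with ASO2 and 3 and 3 with ASO10 in NGP, and 6 and 1 with ASO2 and 5 and 4 with ASO10 in SK-N-BE(2)c, with TTC1 at -0.67 (ASO2, NGP) the largest. Mitochondrial proteostasis genes gave, of 10, 3 higher and 1 lower with ASO1 and 3 and 0 with ASO2 in IMR32, 2 and 3 with ASO2 and 4 and 3 with ASO10 in NGP, and 4 and 4 with ASO2 and 4 and 2 with ASO10 in SK-N-BE(2)c, with CLPX, the unfolding subunit of a matrix protease, at 0.96 (ASO2, SK-N-BE(2)c) the largest. None of these lists holds a member, and the shares of all genes given above are the background for their counts.

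Members with and without the motif matches described above were counted side by side, as a description only. In IMR32, 19 of 20 tested members with a 2-unit match were higher with ASO1 and 20 of 20 with ASO2, against 13 and 14 of 22 members with none. Both sets lay above the 13.6% (ASO1) and 17.6% (ASO2) of all genes called higher there. In NGP the counts with ASO2 were 10 of 20 with a match and 14 of 23 without, beside 30.6% of all genes called higher. In SK-N-BE(2)c they were 14 of 21 and 14 of 22, beside 33.6%. Of the members with 3 units in a row, 7 of 8 were higher with ASO1 and 8 of 8 with ASO2 in IMR32. With ASO2, 4 of 8 were higher in NGP and 6 of 7 in SK-N-BE(2)c, and 0 were lower in these comparisons. With ASO10, 0 of 8 in NGP and 0 of 7 in SK-N-BE(2)c were higher, and 3 were lower in each line. Among all genes 26.8% were higher and 27.6% lower in NGP, and 27.8% and 31.1% in SK-N-BE(2)c. With so few members the ASO10 counts do not set them apart from genes at large. Of 47 genes outside the list with a 3-unit match, 5 were higher and 14 lower with ASO1 and 13 higher and 11 lower with ASO2 in IMR32. The shares called higher among them were 10.6% and 27.7%, beside 15.4% and 20.9% of the genes with no 2-unit match. With ASO10, 11 of 39 genes outside the list with a 3-unit match were higher and 14 lower in NGP. In SK-N-BE(2)c 12 of 38 such genes were higher and 17 lower. The members with a 3-unit match that were lower with ASO10 were DNAJB6 and HSPA8 in both lines, DNAJA1 in NGP and CHORDC1 in SK-N-BE(2)c. HSP90AA1, HSP90AB1 and HSPD1 were called with ASO10 in neither line by the main test. In SK-N-BE(2)c, HSP90AB1 was called higher with DESeq2 (0.13, adjusted p 0.0173) and edgeR (0.12, adjusted p 0.0297). HSPD1 was called lower there at one total (-0.13, adjusted p 0.0238) and with the replicate block (adjusted p 0.041). HSPA6 was not called in NGP and not tested in SK-N-BE(2)c. DNAJB1, with GAAGGTTC 77 to 70 and GAAGCTTC 47 to 40 bases before its start, fell in NGP and was not called in SK-N-BE(2)c.

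NGP and SK-N-BE(2)c were scaled together by the authors, so the levels of a gene under NCA can be set side by side between these lines. Apart from HSPA12A, CCT2 had the highest ratio of NGP over SK-N-BE(2)c among the members, with 98912 ± 765 normalized reads (SD, n = 3) against 4766 ± 262, a 20.8-fold ratio. The genes around it in chromosome order showed ratios of like size: FRS2 21.4, YEATS4 28.3, CPSF6 11.0, MDM2 26.3, SLC35E3 17.3 and NUP107 15.7 on one side and RAB3IP 31.5 and CNOT2 22.4 on the other. CPM, between MDM2 and CPSF6, and KCNMB4, next beyond CNOT2, had 748 and 383 normalized reads in NGP and 0.643 and 0.991 in SK-N-BE(2)c, too few in the latter for a ratio. Farther out on that side PTPRB had a ratio of 0.766 and PTPRR of 0.180, so levels above those of SK-N-BE(2)c ended between KCNMB4 and PTPRB. The other CCT subunits did not show such a ratio: it was 1.05 for CCT3 (17563 ± 113 and 16731 ± 882 normalized reads), 1.25 for CCT7 and 0.554 for CCT6A. DNA copy number was not measured here. Without CCT2 the members took 1.55% ± 0.0523 of the counts in NGP NCA libraries and 1.70% ± 0.0810 in SK-N-BE(2)c. Other members with unequal levels between these NCA groups were HSPB1 (NGP 64.1 ± 8.85, SK-N-BE(2)c 1052 ± 82.0), HSPA1A (17.1 ± 4.16 and 196 ± 15.2), BAG3 (49.5 ± 3.81 and 190.3 ± 27.3), DNAJB5 (971 ± 79.2 and 172 ± 14.7) and HSPA12A (1025 ± 12.3 and 0.685 ± 0.593).

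**Figure D5:**
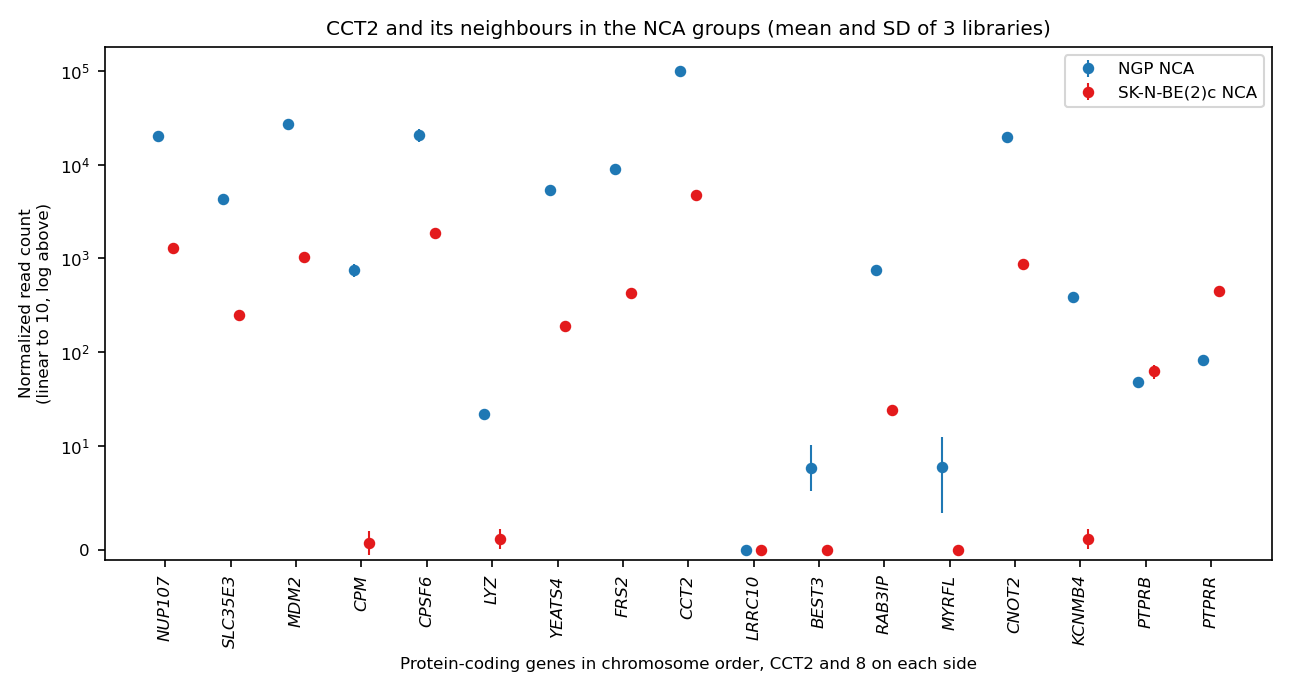
Normalized read count under NCA (y axis, linear to 10 and logarithmic above) of CCT2 and the 8 protein-coding genes on each side of it in chromosome order (x axis), with mean and SD of 3 libraries in NGP and SK-N-BE(2)c. From NUP107 to CNOT2 the genes with a mean of at least 10 in both lines lie 11.0 to 31.5 times higher in NGP, CCT2 at 20.8, CPM and KCNMB4 are near 0 in SK-N-BE(2)c, and PTPRB and PTPRR are not higher in NGP.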

How the data were processed

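RNA sequencing of 30 libraries in 9 groups was analysed. Per the submitters' processing notes, FastQC 0.11.8, cutadapt 1.18, STAR 2.6.0, HTSeq 0.6.1 and DESeq2 1.42.0 were used with hg19 (GRCh37); the role of each tool is not given in the sources used here. The authors deposited normalized signal values per gene, IMR32 scaled alone and NGP with SK-N-BE(2)c scaled jointly. The steps between low values in each library gave whole reads for 100% of values (tolerance 0.001), so depth per library was recovered. Levels of single genes were compared between lines only for NGP and SK-N-BE(2)c, which were scaled jointly. Shares of counts were also given for IMR32, which was counted over a different set of genes. In IMR32, 174 rows without a gene ID, 0.172% of the values, were left out.

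Members were matched by gene ID, with names from GENCODE. The members and lists were chosen with earlier results of these data known, so nothing here is independent of them. The main test was limma 3.58.1 (R 4.3.3) on log2(value + 1) of genes with a mean of at least 10, with Benjamini-Hochberg adjustment over all genes tested, per line, and on the 18 joint libraries for the difference between lines. The design foresaw normalized values, so limma was kept as the main test, with edgeR 4.0.16 and DESeq2 1.42.0 on the recovered reads as alternatives; other alternatives were pseudocounts of 0.5 and 8, a mean of at least 50 or no minimum, rescaling to the same total, a replicate block and leaving out each library. All 53 members are accounted for; 1 gene of the adrenergic marker list and 1 of the heat shock responsive list are not reported here and were left out of their sums and counts. Values in every library are given for 12 inducible or abundant members, for members called against NCA with a log2 fold change of 1 or more in size and for members called with one sign in all 6 comparisons against NCA, 18 in all; from other lists only the gene with the largest called change is named. HSPA12A and DNAJB6 were given with libraries after their values were seen. Percentages, means and SD were computed with pandas 2.3.3 (Python 3.11.15). Promoter sequences came from RefSeq (GRCh38.p14), whose coordinates are not those of the deposited build.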

Additional observations from a re-analysis of the deposited data

Results flagged for a closer look

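In IMR32, where groups have 4 libraries, 54 groups of the members given library by library were checked for a library far from the other 3, and 4 had one, where chance gives about 1 in 20. They were replicate 1 of HSPA1B with ASO2 (614 normalized reads, low), replicate 3 of HSPH1 with NCA (2089, high), replicate 1 of HSPD1 with ASO1 (6763, high) and replicate 1 of HSPD1 with NCA (5552, high).

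The effect of ASO2 against NCA differed between NGP and SK-N-BE(2)c, by limma's interaction term at an adjusted p under 0.05, for 17 of 50 members, and each difference (NGP minus SK-N-BE(2)c, log2) was negative. It was -0.26 for HSP90AA1, -0.30 for HSP90AB1 and -0.22 for TRAP1 among HSP90 genes, and -0.27 for FKBP4, -0.51 for AHSA1 and -0.41 for STIP1 among co-chaperones. HSP40 genes gave -0.57 for DNAJA1, -0.70 for DNAJB1, -0.46 for DNAJB5 and -0.35 for DNAJC7. CCT subunits gave -0.40 for CCT4, -0.25 for TCP1, -0.31 for CCT8 and -0.23 for CCT3. The remaining values were -0.50 for HSPH1, -0.87 for HSPB1 and -0.23 for HSPD1. Leaving out 1 of the 12 libraries ended the call of HSP90AA1 in 9 cases (adjusted p up to 0.113), TRAP1 in 9 (0.12), DNAJB5 in 8 (0.0914), HSPB1 in 7 (0.0944), HSPD1 in 7 (0.0901) and TCP1 in 5 (0.0765). Rescaling to the same total left 10 negative and 2 positive calls, so the one-sided count depends on the scaling. The calls of HSP90AA1, TRAP1, HSPD1, TCP1, CCT3, DNAJB5 and HSPB1 were then lost (adjusted p 0.0537 to 0.151). HSPA13 (0.32, adjusted p 0.0484) and HSPA4L (0.38, adjusted p 0.0309) were then called.

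The effect of ASO10 differed in the same test for 13 of 50 members. It was higher in NGP for HSPA4L (0.99), DNAJB4 (0.72) and PTGES3 (0.39). It was lower in NGP for DNAJA1 (-0.26), DNAJA3 (-0.25), DNAJB1 (-0.58), DNAJC7 (-0.27), HSPA9 (-0.28), TRAP1 (-0.29), CCT3 (-0.19), CCT5 (-0.27) and CCT7 (-0.33). HSPA12A gave -1.86, with SK-N-BE(2)c at or under 3 reads in each library, a value that was not called with edgeR (adjusted p 0.0638) or DESeq2 (0.103). Leaving out 1 library ended the call of CCT3 in 10 cases (up to 0.125), DNAJA1 in 9 (0.123), DNAJC7 in 6 (0.0836) and DNAJA3 in 2 (0.0579). The cause of these differences was not tested.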

How the results depend on the processing

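Between 8 other settings, the number of members called stayed within 1.5 times its reported value in each comparison with 2 exceptions. ASO1 against ASO2 in IMR32 rose from 12 to 22 under the replicate block, and the ASO2 difference between NGP and SK-N-BE(2)c went from 17 to 11 when no minimum was set, which tests more genes. With libraries left out, the counts ran from 32 to 37 (ASO1, IMR32), 35 to 38 (ASO2, IMR32), 10 to 16 (ASO1 against ASO2), 31 to 35 (ASO2, NGP), 20 to 27 (ASO10, NGP), 32 to 35 (ASO2 against ASO10, NGP), 36 to 38 (ASO2, SK-N-BE(2)c), 21 to 27 (ASO10, SK-N-BE(2)c), 39 to 43 (ASO2 against ASO10, SK-N-BE(2)c), 12 to 19 (ASO2 between lines) and 10 to 15 (ASO10 between lines). Of 8418 single values of members under these alternatives, 8020 stayed called with the same sign or stayed not called, 246 lost the call and 151 gained one. A change of sign was counted only where the value was called under either setting, which held for 1. HSPA1A with ASO10 in NGP, 0.17 alone, was -0.23 (adjusted p 0.0354) when summed with HSPA1B, and most reads of the sum come from HSPA1B. Changes of sign among values not called were not counted.

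Whether replicate numbers pair the libraries was checked by the correlation of their deviations from the group means. Over genes with a mean of at least 10 no pair of groups had every number over 0.1 (ASO1 with NCA in IMR32, 0.055 to 0.318, 6 of 8 libraries closest to their own number). Over genes with a mean of at least 50 that pair of groups did (0.112 to 0.564) and no other. Single numbers reached 0.562 for ASO1 with ASO2 and 0.504 for ASO2 with NCA in IMR32. Some libraries of one number thus shared deviations, mainly in IMR32, and the main fit without a block leaves these in its spread. With the replicate block the counts called were 42 (ASO1) and 43 (ASO2) in IMR32, 35 (ASO2), 26 (ASO10) and 36 (ASO2 against ASO10) in NGP, the same 3 counts being 39, 25 and 42 in SK-N-BE(2)c, and 20 (ASO2) and 15 (ASO10) between lines. Among calls gained under the block with ASO1 in IMR32 were CCT5 (adjusted p 0.00828), CCT7, FKBP4 (0.00221) and HSPD1.

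Depth limits CRYAB, HSPB8 and, in one or more lines, HSPA1A, HSPA1L, HSPA2, HSPA6, HSPA12A and DNAJA4, which had too few reads to be tested; DESeq2 gave no adjusted p for HSPA1L in IMR32.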

Other observations

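UBB, one of the genes for ubiquitin and a stress gene listed beside the members, had 7.50 ± 2.67 normalized reads (SD, n = 3) in NGP NCA libraries, against 4298 ± 215 in SK-N-BE(2)c. With ASO2 and ASO10 in NGP it had 5.99 ± 0.472 and 7.17 ± 2.91. In IMR32, which was scaled apart, UBB was at 2646 ± 271 under NCA. The cause was not tested.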
